A study of Mus musculus with 11 samples.

Results

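The 9 inflammasome genes *Nlrp3*, *Nlrc4*, *Nlrp1b*, *Nlrp6*, *Nlrp10*, *Aim2*, *Pycard*, *Casp1* and *Casp4* were taken by their symbols from a table of 45777 genes, and each was present in it. They were measured by RNA sequencing in the skin and the small intestine of BALB/c mice that received a control cream or imiquimod (IMQ). IMQ activates TLR7, an endosomal receptor for single-stranded RNA, and repeated topical use leads to a psoriasis-like dermatitis. The mice were female or male and 8 to 10 weeks old, and 62.5 mg of cream was put on the right ear and on shaved back skin once per day for 5 to 8 days. The cream was Vaseline in the control groups and Aldara, with 5% IMQ, in the treated groups. These are different products, so an effect of IMQ and one of the rest of the cream cannot be told apart. From the skin, 3 libraries were of control mice (replicates 1 to 3) and 3 of IMQ-treated mice (replicates 4 to 6). From the small intestine, 3 were of control mice (replicates 7 to 9) and 2 of IMQ-treated mice (replicates 10 and 11). The sample annotation gives neither the sex nor the days of treatment of each library, and it does not say which libraries came from one mouse, so the p-values measure only the spread between these libraries.

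Inflammasomes are cytosolic complexes that form when a sensor protein detects microbial products or cell damage. The sensors here are *Nlrp3*, which responds to ion fluxes and membrane damage, *Nlrc4*, which is engaged by NAIP proteins that bind bacterial flagellin and secretion system proteins, *Nlrp1b*, which is cleaved by anthrax lethal factor, *Aim2*, which binds cytosolic DNA, *Nlrp6*, a sensor of the intestinal epithelium, and *Nlrp10*, a family member without leucine-rich repeats. *Pycard* encodes ASC, the adaptor that links sensors to caspase-1. *Casp1* encodes caspase-1, which matures IL-1β and IL-18 and cleaves gasdermin D, and *Casp4* encodes mouse caspase-11, which binds bacterial lipopolysaccharide in the cytosol and also cleaves gasdermin D. Neither protein cleavage nor complex formation can be read from RNA.

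The positions are those of GRCm38 (mm10). *Casp1* (chr9:5298517-5307281) and *Casp4* (chr9:5308849-5336791) lie next to each other on the plus strand of chromosome 9, with 1567 bases between them. *Pycard* (chr7:127991373-127993867, minus strand), *Nlrp6* (chr7:140920902-140929192, plus strand) and *Nlrp10* (chr7:108921853-108930158, minus strand) are on chromosome 7. *Nlrp3* (chr11:59541569-59566955, plus strand) and *Nlrp1b* (chr11:71152574-71242514, minus strand) are on chromosome 11, *Nlrc4* (chr17:74426255-74459144, minus strand) on chromosome 17 and *Aim2* (chr1:173349547-173466040, plus strand) on chromosome 1. Of the exon bases of *Pycard*, 12.8% (485 of 3800) are shared with *Gm45205* on the opposite strand, and the use of strand in counting was not stated. The counts of *Nlrp1b* are uncertain as well, because it has close paralogs and its locus varies between mouse strains.

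RefSeq promoter windows, from 250 bases before to 50 bases after the transcript start in GRCm38.p6, were found for 8 of the 9 genes, and *Nlrp10* had no entry. The windows shown are those of the 3 genes whose response to IMQ differed between the tissues (*Pycard*, *Casp1* and *Casp4*) and of *Nlrp3*, which was called in the skin. Each is written 5′ to 3′ along the strand of its gene, and capitals mark matches to the NF-kappaB motif GGNNTTTCC on either strand.
Pycard (chr7:127993818-127994117, minus strand): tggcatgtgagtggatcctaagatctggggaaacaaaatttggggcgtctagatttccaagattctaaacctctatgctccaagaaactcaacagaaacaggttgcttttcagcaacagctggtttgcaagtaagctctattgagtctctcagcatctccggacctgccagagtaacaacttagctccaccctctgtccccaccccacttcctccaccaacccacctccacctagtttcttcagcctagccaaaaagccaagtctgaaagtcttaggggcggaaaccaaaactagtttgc
Casp1 (chr9:5298267-5298566, plus strand): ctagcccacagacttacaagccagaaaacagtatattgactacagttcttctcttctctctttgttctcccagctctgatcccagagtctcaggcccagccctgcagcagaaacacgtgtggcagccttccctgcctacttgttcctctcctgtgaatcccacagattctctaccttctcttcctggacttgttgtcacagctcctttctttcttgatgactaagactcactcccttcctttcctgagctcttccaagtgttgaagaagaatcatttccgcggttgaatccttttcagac
Casp4 (chr9:5308599-5308898, plus strand): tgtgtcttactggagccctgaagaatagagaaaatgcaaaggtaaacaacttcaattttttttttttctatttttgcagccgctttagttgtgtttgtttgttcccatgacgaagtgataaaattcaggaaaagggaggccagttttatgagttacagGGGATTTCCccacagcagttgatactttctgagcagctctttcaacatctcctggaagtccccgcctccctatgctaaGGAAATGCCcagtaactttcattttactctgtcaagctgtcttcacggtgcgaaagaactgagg
Nlrp3 (chr11:59542436-59542735, plus strand): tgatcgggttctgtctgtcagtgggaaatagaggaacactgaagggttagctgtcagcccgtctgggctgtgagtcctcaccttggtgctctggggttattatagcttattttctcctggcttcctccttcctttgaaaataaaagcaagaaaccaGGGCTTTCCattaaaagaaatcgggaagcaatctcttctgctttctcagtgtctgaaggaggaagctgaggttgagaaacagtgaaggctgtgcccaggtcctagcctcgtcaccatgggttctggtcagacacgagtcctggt
The window of *Casp4* held 2 matches, which begin 92 and 14 bases before the start, and the window of *Nlrp3* held 1, which begins 94 bases before it. The second window of *Nlrp3* also held 1 match, and the second window of *Casp4*, which overlaps the first, held the same 2. The windows of *Nlrc4*, *Nlrp1b*, *Nlrp6*, *Aim2*, *Pycard* and *Casp1* held none. In comparison, 5.82% of 32851 promoter windows of this length hold the motif. The interferon motifs GAAANNGAA and TTCNNNGAA, searched on both strands, are present in 8.56% and 8.3% of all windows and were not found in any window of these 8 genes. A match describes the letters of a window and is not evidence of binding.

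The libraries had between 44995414 and 58526384 counts in total. Control replicate 2 of the skin stood apart from the other skin libraries. Over 8 enterocyte markers it held a median of 0.931% of the level in control small intestine, against 0 to 0.0372% in the other 5 skin libraries. Its summed normalized count of 8 hair follicle markers was 707.7, within the range of the IMQ-treated skin (540.8 to 769.3) and far under the other controls (65730 and 103200). An admixture of 0.931% would amount to 31.7% of the *Nlrc4* counts of this library, to 4.92% of those of *Casp1* and to at most 2.39% of those of *Aim2*, *Pycard*, *Casp4*, *Nlrp3*, *Nlrp1b* and *Nlrp10*. The part of these transcripts in the results was not tested, and values for the skin are given with and without this library where it changes the call of one of the 9 genes.

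The level of each gene was first compared between the tissues of control mice, in FPKM, which divides the fragments of a gene by its length and by the depth of the library and so allows comparison between genes. Both caspases, the adaptor and the sensors *Nlrc4* and *Aim2* were higher in the small intestine. In bulk tissue, a difference in the number of cells of a type and a difference in RNA per cell cannot be told apart. *Casp1* was at 14.4, 16.9 and 16.5 FPKM in control skin and at 84.6, 98.6 and 86.5 FPKM in control small intestine. *Nlrc4* was at 0.339, 0.414 and 0.167 FPKM in the skin and at 14.6, 17.2 and 17.2 FPKM in the small intestine. *Nlrp10* had the opposite pattern, with 21.5, 21.8 and 7.77 FPKM in the skin and 0.0398, 0.0342 and 0.0490 FPKM in the small intestine. None of these 3 genes overlapped between the tissues. The share of all genes without such overlap was not computed, but the model below called 10321 of 18108 genes between these tissues.

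A single model of the 4 groups was fitted to 18108 genes. By edgeR's quasi-likelihood test, adjusted over these genes after Benjamini and Hochberg, it called 5 of the 8 genes tested as higher in control small intestine, against 28.2% of all genes, and 2 as lower, against 28.8%. *Nlrc4* was 62.7-fold higher (log2 5.97, SE 0.31, adjusted p = 8.73e-08), and *Casp1* was 7.68-fold higher (log2 2.94, SE 0.13, adjusted p = 3.08e-08). *Aim2* was 4.29-fold higher, and *Casp4* and *Pycard* were higher by 2.01 and 1.77 on the log2 scale. *Nlrp10* was 285.6-fold lower (log2 -8.16, SE 0.57, adjusted p = 5.41e-07), and *Nlrp1b* was lower with a log2 difference of -0.97 (SE 0.25, adjusted p = 0.00614). *Nlrp3* was not called (log2 -0.88, 95% interval -1.83 to 0.08, adjusted p = 0.109), but passed without IMQ replicate 10 (log2 -0.87, adjusted p = 0.0154) or IMQ replicate 11 of the small intestine (log2 -0.87, adjusted p = 0.0164), and with limma on either FPKM scale. The 7 calls were made in each of the 11 fits without 1 library. Without control replicate 2 of the skin, the difference of *Nlrc4* was 6.31.

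*Nlrp6* was left out of the fits that include the skin because it had no counts in some skin libraries. Its counts in the control skin were 0, 120 and 3, and those in the IMQ-treated skin were 0, 0 and 0. The 120 counts were in control replicate 2 and equal 0.802% of the level in control small intestine, close to the median of the enterocyte markers in that library. In the small intestine *Nlrp6* had 15544, 17807 and 16895 counts in control mice and 14916 and 18304 in IMQ-treated mice. At a limit of 3 counts per skin library, its mean level in CPM (counts scaled to the depth of each library) in IMQ-treated mice was at least 4798-fold higher in the small intestine than in the skin. The mean over the 2 intestinal libraries was 319.9 CPM and the lower of them had 266 CPM, against a limit of at most 0.0667 CPM in the skin.

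**Figure D1:**
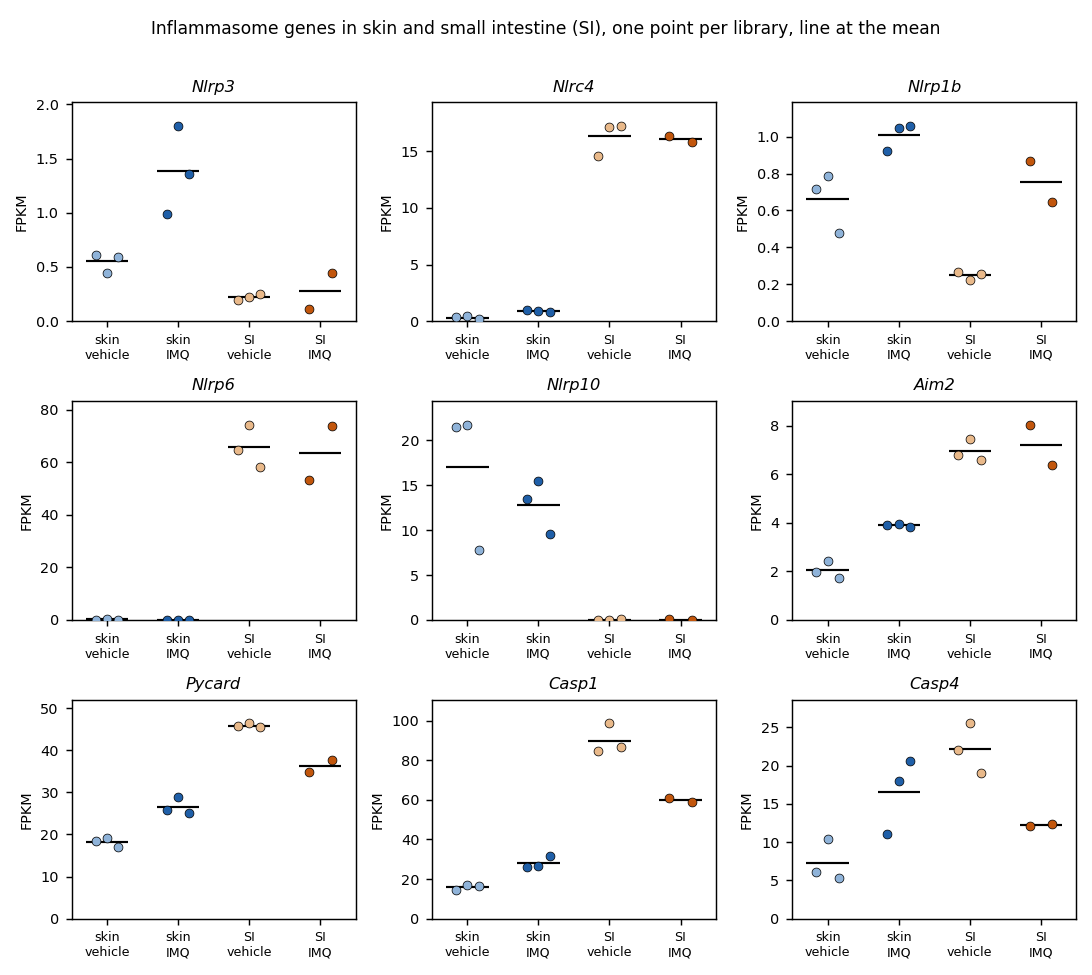
FPKM of the 9 genes (vertical axes, linear from 0 and scaled per gene) in skin and small intestine (SI) of control (vehicle) and IMQ-treated mice, with 1 point per library and a line at the group mean. *Nlrp6* and *Nlrc4* were near 0 in the skin and *Nlrp10* was near 0 in the small intestine. The IMQ points of *Pycard*, *Casp1* and *Casp4* lie above the controls in the skin and below them in the small intestine.

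The order of the levels differed between the tissues. In control skin, *Pycard* (18.3 ± 1.18 FPKM, SD, n = 3), *Nlrp10* (17.0 ± 7.99) and *Casp1* (15.9 ± 1.38) had the highest means. The range of *Pycard* did not overlap with that of *Casp1*, while the wide range of *Nlrp10* overlapped with both and with that of *Casp4* (7.30 ± 2.72). *Aim2* (2.05 ± 0.341) followed without overlap. *Nlrp1b* (0.661 ± 0.164) and *Nlrp3* (0.551 ± 0.0922) overlapped, *Nlrc4* (0.307 ± 0.127) lay below both, and *Nlrp6* (0.179 ± 0.303) overlapped with all 3 through control replicate 2. In IMQ-treated skin, *Casp1* (28 ± 2.95) and *Pycard* (26.6 ± 2.06) overlapped at the top, *Casp4* (16.6 ± 4.92) overlapped with *Nlrp10* (12.8 ± 3.01), and *Aim2* (3.90 ± 0.0765) stood above *Nlrp3* (1.38 ± 0.408), *Nlrp1b* (1.01 ± 0.0764) and *Nlrc4* (0.894 ± 0.0821), whose ranges overlapped from one to the next. In control small intestine, *Casp1* (89.9 ± 7.6), *Nlrp6* (65.8 ± 8.04), *Pycard* (45.8 ± 0.469), *Casp4* (22.2 ± 3.23), *Nlrc4* (16.3 ± 1.51) and *Aim2* (6.95 ± 0.462) followed each other without overlap. *Nlrp1b* (0.249 ± 0.0227) and *Nlrp3* (0.221 ± 0.0256) overlapped below them, and *Nlrp10* was lowest (0.041 ± 0.00747). In the 2 IMQ libraries of the small intestine, *Nlrp6* (63.6 ± 14.6, n = 2) and *Casp1* (60.0 ± 1.21) overlapped, and *Nlrc4* (16.1 ± 0.389) stood above *Casp4* (12.2 ± 0.196).

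The second comparison asks how the lesional skin changed. In IMQ-treated skin the adaptor, caspase-1 and 2 sensors rose. With edgeR's quasi-likelihood test, 4 of the 8 genes tested were called as higher (*Casp1*, *Nlrp3*, *Aim2* and *Pycard*), against 4.05% of the 20512 genes tested. None was called as lower, against 2.69% of all genes. With an unadjusted p under 0.05 the numbers were 7 higher and 0 lower, against 4753 of all 20512 genes in either direction. DESeq2 called 6 genes as higher and 0 as lower, adding *Nlrc4* and *Casp4*, against 3030 of all genes in either direction. In 7 of the 8 genes every IMQ library was above every control library, which held for 15.1% of all genes. The median log2 fold change of the 8 genes was 0.98, against -0.01 over all genes. The values that follow are normalized counts, in which each library is scaled to the average depth of its tissue.

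*Casp1* had 1135.5, 1439 and 1289 normalized counts in control skin and 2262, 2207 and 2545 in IMQ-treated skin. It rose 1.82-fold (log2 0.86, SE 0.13, adjusted p = 0.0143), and the lowest IMQ library was well above the highest control. *Pycard* had 2071, 2309.6 and 1871 normalized counts in the controls and 3137, 3402 and 2870.5 with IMQ. It also rose without overlap, by 0.59 on the log2 scale (SE 0.12, adjusted p = 0.0390). *Casp4* had 449, 818 and 382 normalized counts in the controls and 871, 1373 and 1545 with IMQ. The groups did not overlap, yet the 2.30-fold difference (SE 0.34 on the log2 scale) did not pass (adjusted p = 0.0884), and control replicate 2 was the highest control. Without that library *Casp4* passed (log2 1.61, adjusted p = 0.0199).

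Among the sensors, *Nlrp3* had 129, 101 and 125 normalized counts in control skin and 225, 398 and 288 in IMQ-treated skin. It rose 2.56-fold (log2 1.36, SE 0.27, adjusted p = 0.0336). *Aim2* had 366, 479.8 and 274 normalized counts in the controls and 739.8, 770.2 and 892 with IMQ. It rose 2.15-fold (log2 1.10, SE 0.23, adjusted p = 0.0366), and neither gene overlapped between the groups.

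*Nlrc4* had 80.5, 106 and 39.2 normalized counts in control skin against 225, 194 and 178 with IMQ. Its log2 fold change of 1.41 (SE 0.37) was the largest of the 8 but did not pass (adjusted p = 0.0727). Without control replicate 2, the library with the enterocyte markers, it was 1.74 and passed (adjusted p = 0.0338). *Nlrp1b* had 177, 207 and 116 normalized counts in the controls and 247, 271 and 266 with IMQ, and did not pass (log2 0.65, SE 0.25, adjusted p = 0.187).

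*Nlrp10*, the sensor with the highest level in the skin, had 5028, 5474 and 1799 normalized counts in the controls and 3448, 3824 and 2299 with IMQ. The groups overlapped, and its log2 fold change was -0.36 (95% interval -1.33 to 0.61, adjusted p = 0.654). Control replicate 3 was lower than each of the IMQ libraries, whereas the other controls were higher. The summed normalized count of 8 keratinocyte markers was also lowest in control replicate 3 (611300, against 1323000 and 1293000). With IMQ it was lowest in replicate 6 (953200, against 1868000 and 1612000), as for *Nlrp10*. Among the remaining libraries the order differed, and the part of keratinocyte content in the values of *Nlrp10* was not tested.

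The number of calls in the skin depended on single libraries, although the direction of the 8 genes did not change in the 6 fits without 1 library. Without control replicate 1, IMQ replicate 4 or IMQ replicate 5, edgeR called 0 of the 8 genes (6 at an unadjusted p under 0.05 in each). With all libraries 4753 of all 20512 genes met the unadjusted threshold, and the number for these fits is not given here. Without control replicate 3 or IMQ replicate 6 it called *Casp1* only, and without control replicate 2 it called 6. With all libraries, the call of *Nlrp3* was lost in the model of 4 groups (adjusted p = 0.0703) and with limma on log2(FPKM + 1) (adjusted p = 0.0655) or log2(FPKM + 0.01) (adjusted p = 0.0572), and that of *Pycard* without a filter on low counts (adjusted p = 0.0558). Markers of neutrophils and macrophages also differed with the treatment. The summed normalized count of 10 neutrophil markers was 829 to 1171 in control and 179600 to 226000 in IMQ-treated skin, with 6 of the 7 markers tested called as higher. Most of this sum was *S100a8* and *S100a9* (means of 74420 and 124400 with IMQ), whereas the log2 fold changes of *Cxcr2*, *Csf3r* and *Mmp8* were 2.91, 3.04 and 3.49, the means of *Retnlg* were 16.2 and 66.0, and *Ly6g* had at most 9.26 normalized counts in a library. That of 12 macrophage and monocyte markers was 38950 to 60320 and 99580 to 123600, with 6 of 12 called as higher and none of the defining markers at 0. That of 8 keratinocyte markers was 611300 to 1323000 and 953200 to 1868000, with 1 of 8 called as higher. The part of these cells in the results was not tested.

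**Figure D2:**
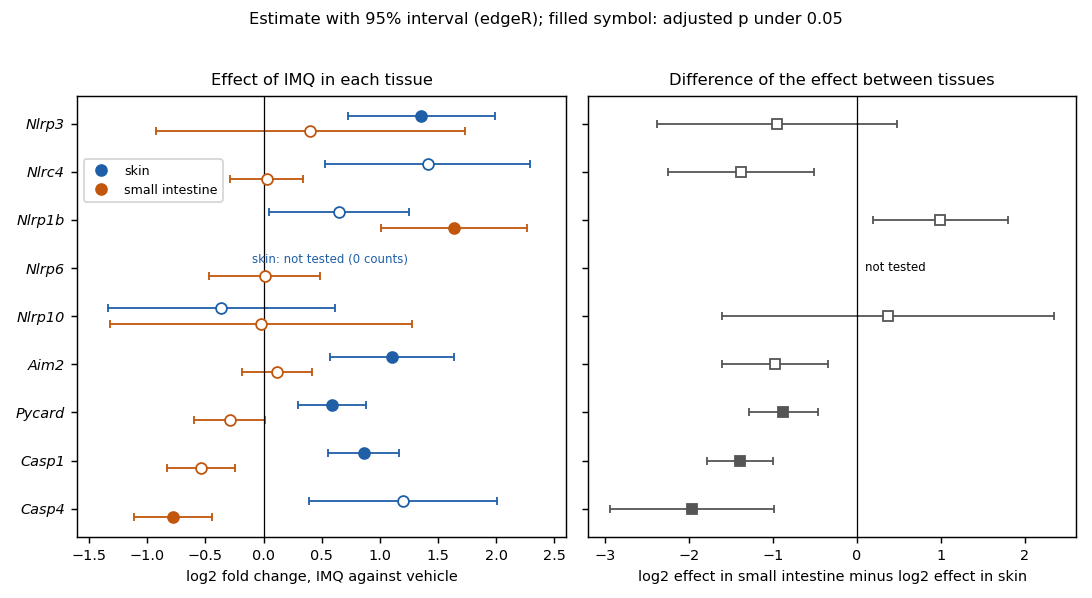
Left, log2 fold change of IMQ-treated against control mice (horizontal axis) of each gene in skin (blue) and small intestine (orange). Right, the log2 effect in small intestine minus that in skin. Bars are 95% intervals and filled symbols have an adjusted p under 0.05, as *Casp1*, *Nlrp3*, *Aim2* and *Pycard* do in skin, *Nlrp1b* and *Casp4* in small intestine, and *Pycard*, *Casp1* and *Casp4* for the difference.

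The third comparison asks how the small intestine changed. No cream was applied to it, but the paper measured IMQ in the serum and the intestine of mice after topical use. In the small intestine the genes did not move together. Of the 9 genes tested, 1 was called as higher (*Nlrp1b*), against 2.77% of the 19965 genes tested, and 1 as lower (*Casp4*), against 0.170%. In 1 gene (*Nlrp1b*) both IMQ libraries were above every control, as in 15.1% of all genes, and in 3 genes (*Pycard*, *Casp1* and *Casp4*) both were below, as in 13.9% of all genes. The median log2 fold change was 0.01, against -0.02 over all genes.

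*Nlrp1b* had 73.8, 56.5 and 72.0 normalized counts in control small intestine and 233 and 186 in IMQ-treated mice. It rose 3.11-fold (log2 1.64, SE 0.27, adjusted p = 0.0212). *Casp4* had 1757, 1921 and 1593 normalized counts in the controls and 960.4 and 1090 with IMQ. It fell by 0.78 on the log2 scale (SE 0.14, adjusted p = 0.0342), to 0.583 of the control level. In a model of all 4 groups, which shares one estimate of the spread with the skin, the fall of *Casp4* was alike (log2 -0.79) but did not pass (adjusted p = 0.340).

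*Casp1* had 7517, 8128 and 7893 normalized counts in the controls and 5281.5 and 5543 with IMQ. The groups were well apart, with a log2 fold change of -0.54 (SE 0.12), but the adjusted p was 0.0849 with edgeR. It was 0.00133 with DESeq2 and 0.0465 in the model of all 4 groups, in both of which *Casp1* was called as lower. *Pycard* had 5731, 5391 and 5852 normalized counts in the controls and 4249 and 4989 with IMQ, and did not pass (log2 -0.29, 95% interval -0.60 to 0.02, adjusted p = 0.439).

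The abundant intestinal sensors had fold changes near 0 and did not pass. *Nlrc4* had 3346, 3708 and 4115 normalized counts in the controls and 3708 and 3879.8 with IMQ, with a log2 fold change of 0.03 (95% interval -0.28 to 0.34). *Nlrp6* had 16861, 17953 and 15603 normalized counts in the controls and 13541 and 20296 with IMQ. Its 2 IMQ libraries lay on either side of the controls, and the log2 fold change was 0.01 (95% interval -0.47 to 0.48). *Aim2* had 1200.8, 1325 and 1288 normalized counts in the controls and 1444 and 1309.5 with IMQ, with a log2 fold change of 0.12 (95% interval -0.18 to 0.41).

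The remaining sensors were measured with less precision. *Nlrp3* had 45.6, 48.4 and 59.1 normalized counts in the controls and 25.4 and 111 with IMQ, so that the 2 IMQ libraries went in opposite directions (log2 0.40, 95% interval -0.93 to 1.73, adjusted p = 0.868). *Nlrp10* had 10, 9 and 15 counts in the controls and 19 and 4 with IMQ, and a difference was not detectable at this depth.

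With 2 IMQ libraries the calls in the small intestine were fragile. Without control replicate 7 both calls stayed past the threshold, whereas without control replicate 8 or control replicate 9 edgeR called 0 of the 9 genes (3 at an unadjusted p under 0.05 in each). With all libraries 2452 of all 19965 genes met the unadjusted threshold, and the number for these fits is not given here. The fits without IMQ replicate 10 or IMQ replicate 11 leave 1 IMQ library, so only their effect sizes are used. With limma the call of *Nlrp1b* was lost on log2(FPKM + 0.01) (adjusted p = 0.0841) and that of *Casp4* on log2(FPKM + 1) (adjusted p = 0.0654). The signs of *Nlrp1b*, *Casp4*, *Casp1* and *Pycard* were the same in all of these fits. The summed normalized count of the 12 macrophage and monocyte markers was 20650 to 31330 in control and 68110 to 69300 in IMQ-treated mice, with 5 of 12 called as higher. Most of the difference was *C1qa* (means of 3322 and 13660), *C1qb* (2112 and 15000) and *C1qc* (2495 and 15270). The means of *Lyz2* were 8220 and 8537, those of *Ly6c2* 1061 and 741.9 and those of *Cx3cr1* 1159 and 1054. In 10 of the 12 the log2 fold change was positive. The summed normalized count of 10 neutrophil markers was 446.6 to 498.7 and 1956 to 1980, with 2 of the 6 tested called as higher. Most of the difference was *Csf3r* (means of 175.6 and 1620), while the means of *Cxcr2* were 12.1 and 10.3 and those of *Retnlg* 221.9 and 210.7. *Ly6g* and *Ngp* were at 0 in both IMQ libraries, and *Camp* was at 0 in all controls. That of 7 dendritic cell markers was 2565 to 2909 and 12020 to 14990, with 2 of 7 called as higher (*Itgax* and *Xcr1*). Most of this difference was *Itgax* (means of 1732 and 12220), which macrophages also express, and *Cd209a* was lower without overlap but not called (means of 171.9 and 88.99, adjusted p = 0.282). That of 8 enterocyte markers was 858200 to 1377000 and 1481000 to 1752000 and that of 8 goblet and Paneth cell markers 830100 to 938800 and 683700 to 703800, with none of either list called. No marker of the macrophage, dendritic cell, enterocyte and goblet and Paneth cell lists was at 0 in any library. Their part in the results was not tested.

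Whether IMQ acted alike on both tissues was asked with the interaction term of the model of 4 groups. The adaptor and both caspases responded differently. Of 8 genes tested, 3 were called with an effect less positive in small intestine than in skin, against 0.856% of 18108 genes. With the opposite difference 0 were called, whereas 66.5% of the 462 genes called among all 18108 had that direction. At an unadjusted p under 0.05, 5 genes had a less positive effect and 1 (*Nlrp1b*) the opposite, against 3068 of all genes in either direction. The difference of the log2 fold changes was -1.39 for *Casp1* (SE 0.18, adjusted p = 0.00372), -1.96 for *Casp4* (SE 0.44, adjusted p = 0.0447) and -0.87 for *Pycard* (SE 0.19, adjusted p = 0.0384). For *Casp1* this is a 2.62-fold difference between the 2 responses. Both tissues had non-overlapping groups for these 3 genes, above the controls in the skin and below them in the small intestine. In a single tissue, 15.1% of all genes were above in the skin and 13.9% below in the small intestine. The share of all genes with both was not computed. Because the interaction test that picked the 3 genes used the same libraries, the lack of overlap is not separate evidence.

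The difference did not pass for *Nlrc4* (log2 -1.38, adjusted p = 0.101), *Aim2* (log2 -0.98, adjusted p = 0.109), *Nlrp1b* (log2 0.996, adjusted p = 0.191), *Nlrp3* (log2 -0.95, adjusted p = 0.512) and *Nlrp10* (log2 0.37, adjusted p = 0.894), so that *Nlrp3*, *Aim2* and *Nlrp1b*, which were called in 1 tissue, were not shown to differ between the tissues. *Casp1* was called in each of the 11 fits without 1 library (log2 -1.50 to -1.29). *Pycard* passed only without control replicate 2 or IMQ replicate 6 of the skin, and *Casp4* only without control replicate 2 or IMQ replicate 4 of the skin, and each lost its call without any of the other 9 libraries. With filterByExpr or no filter on low counts, *Pycard* (adjusted p = 0.0552 and 0.0741) and *Casp4* (adjusted p = 0.0669 and 0.0717) were not called. *Nlrc4* passed without control replicate 2 (log2 -1.72, adjusted p = 0.0165) or control replicate 3 of the skin (log2 -1.04, adjusted p = 0.0458), and *Aim2* without control replicate 2 (log2 -1.22, adjusted p = 0.0117). DESeq2 called 5 genes, with *Nlrc4* and *Aim2* added, against 1281 of all genes in either direction.

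Other genes of the pathway were counted in 3 lists. Among the 20 other inflammasome sensors and regulators, 3 of the 19 tested in the skin were called as higher, against 4.05% of all genes, and 0 as lower. In the small intestine 1 of 19 was called as higher, near the 2.77% of all genes, and 0 as lower. The median log2 fold change was 0.44 in skin and 0.11 in small intestine. *Pstpip1*, which encodes a pyrin-binding cytoskeletal protein, had 405, 479.8 and 339.96 normalized counts in control skin and 1088, 1303 and 1381 with IMQ, and 146, 147 and 149.6 in control and 524 and 412 in IMQ-treated small intestine. It rose in both the skin (log2 1.62, SE 0.18, adjusted p = 0.00535) and the small intestine (log2 1.66, SE 0.21, adjusted p = 0.00597). *Casp8*, a caspase of the extrinsic death pathway, was called in the skin (log2 0.55, SE 0.12, adjusted p = 0.0442) and not in the small intestine (log2 -0.03, adjusted p = 0.978). Its difference between the tissues did not pass (adjusted p = 0.252).

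*Nlrp12*, a regulator expressed in myeloid cells, had 19, 5 and 7 counts in control skin and 82, 128 and 94 in IMQ-treated skin. It rose by 3.45 on the log2 scale (SE 0.47, adjusted p = 0.0107). In the small intestine it had 33, 40 and 21 counts in the controls and 9 and 9 with IMQ, which did not pass (log2 -1.80, adjusted p = 0.111). The difference between the tissues was -5.25 (SE 0.67, adjusted p = 0.00372), and *Nlrp12* was the 1 gene called for the difference among the 33 genes tested in the 3 lists, against 0.856% of all genes with a difference in this direction.

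Among the 6 caspase substrates and pore genes, *Il1b* was the 1 gene called in the skin and the 1 gene called in the small intestine (1 of 6, against 4.05% and 2.77% of all genes). *Il1b* had 305, 446 and 259 normalized counts in control skin and 2141, 3155 and 1912 with IMQ (log2 2.84, SE 0.28, adjusted p = 0.00432). In the small intestine it had 338, 231 and 208 in control and 1343.5 and 3275.5 in IMQ-treated mice (log2 3.16, SE 0.38, adjusted p = 0.00519). The transcript of this substrate of caspase-1 was thus higher in both tissues, and the difference between them did not pass (log2 0.34, adjusted p = 0.814). *Il18*, whose product is matured by the same enzyme, was not called in the skin (log2 0.08, SE 0.44, adjusted p = 0.937) or in the small intestine (log2 1.02, SE 0.45, adjusted p = 0.426). *Gsdmd*, which encodes the pore protein, had log2 fold changes of 0.69 in the skin (SE 0.17, adjusted p = 0.0566) and 0.30 in the small intestine (SE 0.23, adjusted p = 0.707).

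Among the 9 genes of IL-1 and IL-18 receptors and inhibitors, 2 were called as higher in the skin, against 4.05% of all genes, and 1 was called as higher in the small intestine, against 2.77%. *Myd88*, the adaptor of IL-1 and Toll-like receptors, rose in both the skin (log2 0.94, SE 0.11, adjusted p = 0.00719) and the small intestine (log2 0.87, SE 0.11, adjusted p = 0.00607). *Il1rap*, the accessory chain of the IL-1 receptor, rose in the skin (log2 1.09, SE 0.19, adjusted p = 0.0228), and in the small intestine its log2 fold change was 0.22 (adjusted p = 0.808).

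**Figure D3:**
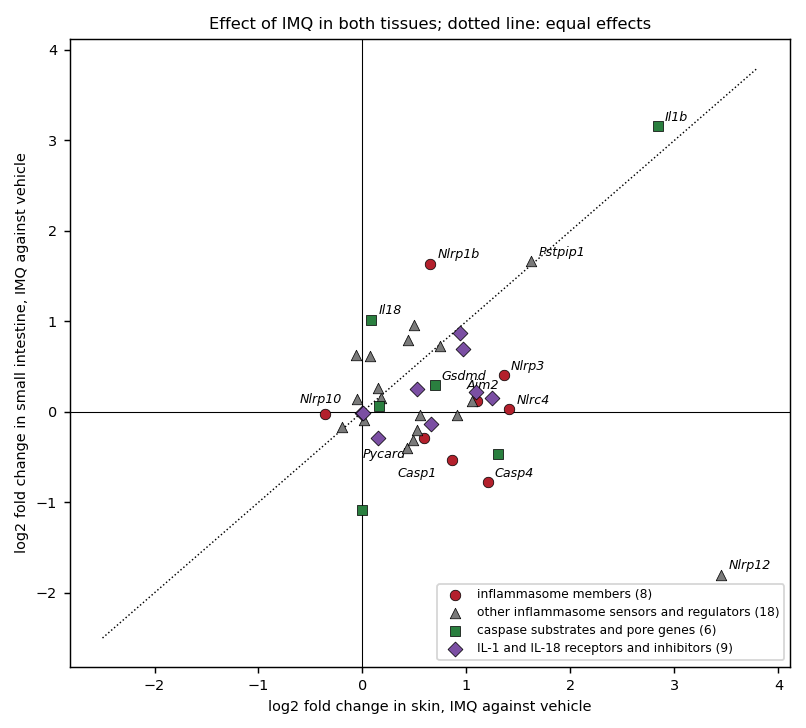
Log2 fold change of IMQ-treated against control mice in skin (horizontal axis) and small intestine (vertical axis) of the inflammasome genes and the 3 lists of pathway genes, 1 point per gene tested in both tissues, with the dotted line at equal effects. *Il1b* and *Pstpip1* lie near the line, whereas *Casp1*, *Casp4*, *Pycard* and *Nlrp12* lie below it with opposite signs in the 2 tissues.

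The genes with the most similar pattern were sought over the 11 libraries, by Pearson's r of log2 normalized counts among 15049 genes. These values are a description, because the libraries share tissue and treatment, and the tissue sets most of the pattern. For *Nlrc4* they were *Naip2* (r = 0.998), *Mgst2* (0.997) and *Slc2a9* (0.996), and for *Nlrp10* they were *Tmem45a* (0.999), *Ggh* (0.997) and *Hebp2* (0.996). *Casp1* was closest to *Galk2* (0.994), *Mecom* (0.991) and *Txndc17* (0.990), and *Pycard* to *Slc35f2* (0.994), *2610528J11Rik* (0.993) and *Txndc17* (0.992). *Casp4* was closest to *Jaml* (0.980), *Tcrg-C4* (0.961) and *Gm19585* (0.948), and *Aim2* to *Bcl2l15* (0.991), *Zc3h12d* (0.989) and *Cfb* (0.987). *Nlrp3* was closest to *Sem1* (0.937), *Phlda2* (0.930) and *Sprr2a1* (0.922), and *Nlrp1b* to *LOC115486509* (0.978), *Myo1g* (0.976) and *Cd200r1* (0.967). *Txndc17* was shared by *Casp1* and *Pycard*, and no other gene was named for more than 1 of the 8 genes.

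**Figure D4:**
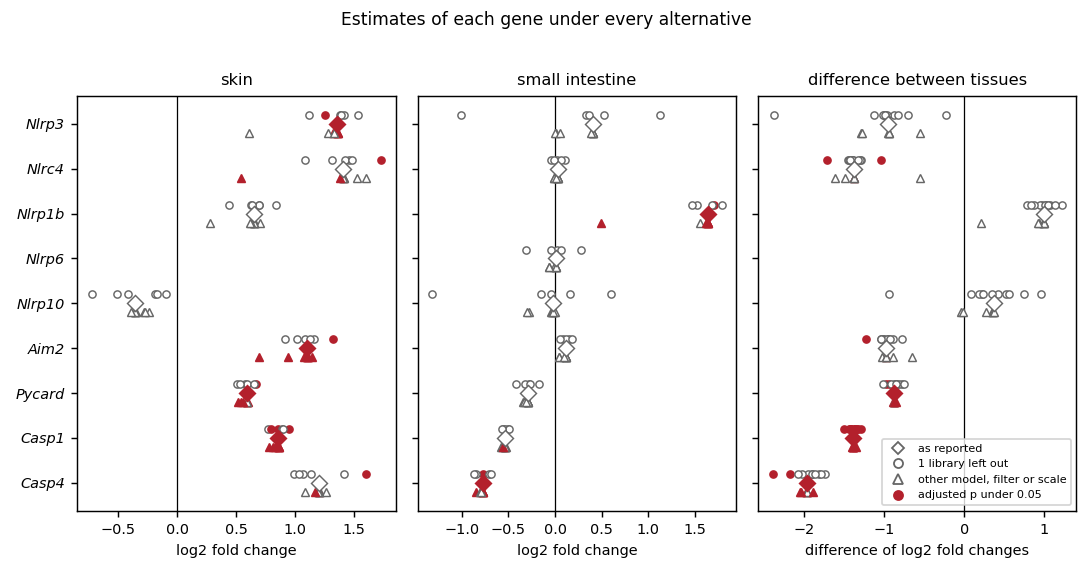
Log2 fold changes in skin and small intestine and their difference between tissues (horizontal axes) for each gene under each alternative. Diamonds are the values as reported, circles are fits without 1 library and triangles are other models, filters or scales, with red for an adjusted p under 0.05. *Casp1* is red in each fit of the difference, while the other calls change with single libraries or models. In the skin the fits without 1 library range from 0.99 to 1.61 for *Casp4* and from 1.09 to 1.74 for *Nlrc4*.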

How the data were processed

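RNA of skin and small intestine was sequenced from TruSeq stranded libraries as paired-end reads. The authors trimmed the reads with Trimmomatic, aligned them to mm10 with HISAT2 2.1.0 and quantified genes with StringTie 2.1.3b, and they deposited whole-number read counts per gene without normalization. They also deposited FPKM, scaled by length and depth, and TPM, which was not used in a test. How counts were taken from StringTie, the use of strand and the treatment of reads with several matches are not given in the sources used here.

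A gene entered a fit if none of its libraries had fewer than 1 count, as in the study's methods. Counts were scaled by relative log expression factors and tested with edgeR 4.0.16 (R 4.3.3) by glmQLFit and glmQLFTest, with Benjamini-Hochberg adjustment over all genes and a threshold of 0.05 without a fold threshold. The study used DESeq2, which was run as an alternative (1.42.0), besides limma 3.58.1 on counts (voom) and on log2(FPKM + 0.01) and log2(FPKM + 1), TMM, other filters, 1 model of 4 groups and each library left out. Fits were tested on simulated data. Annotation was read with Python 3.11.15. Libraries of one group differed by more than sampling noise (chi-square per degree of freedom of 34 to 231), so each counted as 1 sample. The biological coefficient of variation was 0.245 in the skin (4 residual degrees of freedom), 0.215 in the small intestine (3) and 0.212 in the model of 4 groups (7), so the spread between libraries limits the precision of genes with many counts. A floor of 3 counts covers counting error only.

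The members and lists were chosen with earlier results of these data known. The genes named are the 9 members, the pathway genes called in a tissue (up to 5 per list and tissue), *Il1b*, *Il18* and *Gsdmd*, and the 3 genes closest in pattern to each member. Protein sequences were not used here.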

Additional observations from a re-analysis of the deposited data

Results flagged for a closer look

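The effect of IMQ differed between skin and small intestine, by the test of the interaction in edgeR's quasi-likelihood model, for *Casp1* (-1.39 on the log2 scale, small intestine minus skin, SE 0.178, adjusted p = 0.00372), *Casp4* (-1.96, SE 0.441, adjusted p = 0.0447) and *Pycard* (-0.87, SE 0.187, adjusted p = 0.0384), and among the other pathway genes for *Nlrp12* (-5.25, SE 0.666, adjusted p = 0.00372). In each of the 4 genes all IMQ libraries of the skin were above the controls and both IMQ libraries of the small intestine were below them. The first held for 15.1% and the second for 13.9% of all genes, and the share with both was not computed. The test that picked the 4 genes used the same libraries. *Nlrp12* had at most 128 counts in any library.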

How the results depend on the processing

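With 2 or 3 libraries per group, single libraries and the model decided most calls of the IMQ effects, and the fold changes of some genes moved widely: without 1 library, the difference between the tissues ran from -2.38 to -0.22 for *Nlrp3*. Of the fits of single genes under alternatives, 83 of 112 in the skin, 91 of 116 in the small intestine, 114 of 144 for the difference between the tissues and 140 of 144 for the tissues of control mice kept their direction and side of the threshold. The members called ranged from 0 to 6 in the skin, 0 to 2 in the small intestine, 1 to 5 for the difference and 7 to 8 between control tissues when 1 library was left out, and all genes called from 258 to 2521, 294 to 801, 144 to 1072 and 9267 to 10421. The skin had 258 calls without IMQ replicate 5 and 2521 without control replicate 2. DESeq2 called 3030 genes in the skin, 1206 in the small intestine and 1281 for the difference, with 5 members for the difference. Limma on log2(FPKM + 1) called 894 genes in the skin. In the small intestine 1 member was called on each FPKM scale by limma. For the difference, 1 member was called with filterByExpr and 1 with no filter, which called 301 genes among 31083 tested. The cause was not tested.

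Signs turned only for genes that were called in neither fit. In the small intestine *Nlrp6* was at -0.0127 with voom, -0.0609 on log2(FPKM + 0.01) and -0.0598 on log2(FPKM + 1), -0.0436 without control replicate 9 and -0.3126 to 0.2784 over the fits without 1 library. *Nlrc4* was at -0.0154 and -0.0147 on the same FPKM scales, -0.007 without IMQ replicate 11 and -0.0392 to 0.1022 over the fits without 1 library. *Nlrp10* was at 0.1557 without control replicate 9 and between -1.3179 (without IMQ replicate 10) and 0.6037 (without IMQ replicate 11), and *Nlrp3* between -1.0047 (without IMQ replicate 11) and 1.1223 (without IMQ replicate 10). For the difference between the tissues *Nlrp10* was at -0.0454 with voom, -0.0125 on log2(FPKM + 0.01) and between -0.9415 (without IMQ replicate 10) and 0.959 (without IMQ replicate 11 of the small intestine). With Spearman's rank correlation, most of the genes closest in pattern were others. No paired analysis was possible because the sample annotation does not say which libraries came from one mouse. Skin and small intestine libraries were therefore treated as independent.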
